A study of Mus musculus with 6 samples.

Results

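The ERK feedback genes described here are *Spry1*, *Spry2*, *Spry4*, *Spred1*, *Spred2*, *Il17rd*, *Dusp4*, *Dusp6*, *Etv4* and *Etv5*. They were picked by name from the deposited RNA-seq table, and all 10 have a row among its 23235. RNA was sequenced from E14Tg2a cells, a mouse embryonic stem cell (ESC) line, at passages 37 to 40. The 3 pluripotent samples were kept in serum-containing medium with leukemia inhibitory factor (LIF). The other 3 samples came from LIF-free monolayers given 1 μM retinoic acid (RA) for 48 h (2 days). The authors call these RA-differentiated neuronal cells (NCs), and the name is used here only as a label. Removal of LIF and addition of RA were combined in NCs, so their parts in any difference cannot be told apart, and no LIF-free culture without RA was analysed here. The table holds 1 FPKM value (sequenced fragments divided by transcript length and by library size) per gene and condition, estimated by the authors over the 3 samples. Values of single samples were not analysed here, so no value below carries an SD, no difference was tested here, and the values below do not show which differences exceed the spread between replicates.

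Fibroblast growth factors (FGFs) bind receptor tyrosine kinases that act through RAS, RAF and MEK to activate the kinase ERK. ERK in turn switches on genes that dampen the pathway: Sprouty and Spred proteins act on receptors, RAS and RAF, IL17RD (Sef) holds back ERK signaling at membranes, and DUSP phosphatases remove the activating phosphates from ERK. ETV4 and ETV5, of the PEA3 group of ETS transcription factors, are transcribed in response to FGF and carry its output to target genes. In mouse ESCs, FGF4 made by the cells themselves is the best known driver of ERK and prepares the cells to leave pluripotency.

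*Spry4*, *Etv5*, *Spry2*, *Etv4* and *Il17rd* had an FPKM at least 2-fold lower in NCs, the fold limit used throughout with at least 1 FPKM in the higher condition. *Spry1*, *Dusp4*, *Spred2*, *Spred1* and *Dusp6* stayed within 2-fold, and none of the 10 was 2-fold higher. Over all 13293 genes that reached 1 FPKM in either condition, 10.6% were at least 2-fold lower in NCs and 12.5% at least 2-fold higher. The median log2 ratio of NC to ESC was -1.18 for the 10 genes and -0.03 for all 13293. The FPKM column totals differ, 770592 for ESCs against 628679 for NCs, and scaling both to the same total (TPM) would raise every log2 ratio by 0.29. On that scale 7.37% of all genes were 2-fold lower and 17.7% 2-fold higher, the same 5 members were 2-fold lower, and *Dusp6* was past the limit upward at a log2 ratio of 1.05. The log2 ratio of *Dusp4* turned from -0.12 to 0.17.

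**Figure D1:**
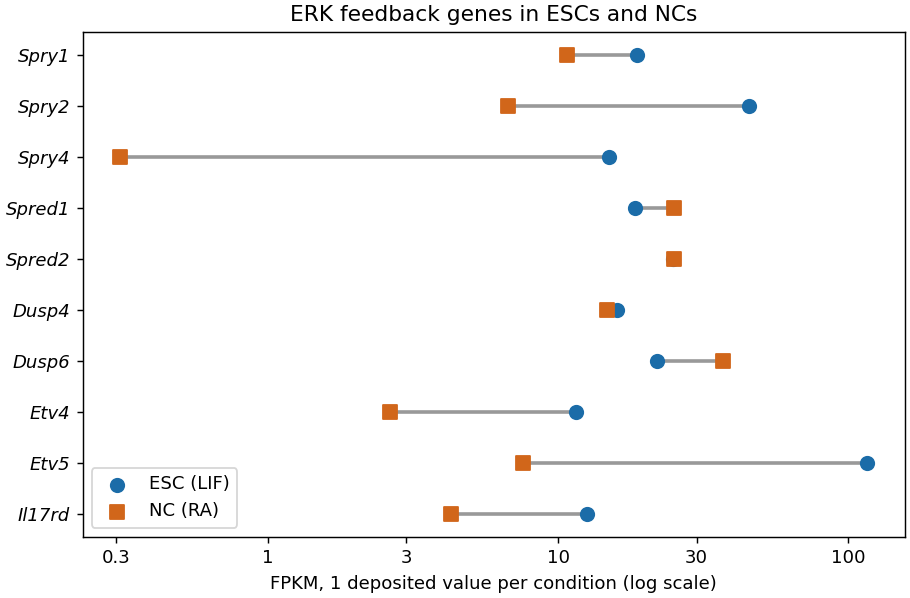
FPKM (log axis) of each ERK feedback gene in ESCs (circles) and NCs (squares), 1 deposited value per condition, joined by a line. The *Spry4* and *Etv5* lines are the longest, from 15.0 to 0.308 and from 116 to 7.57 FPKM, while the 2 symbols of *Spred2* coincide at about 25 FPKM.

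In ESCs *Etv5* stood highest at 116 FPKM, rank 803 of 13293, followed by *Spry2* at 45.7 FPKM, and the other 8 lay between 11.5 FPKM (*Etv4*) and 24.9 FPKM (*Spred2*). The highest level was 10.1 times the lowest. In NCs the order was different and the range was 120-fold. *Dusp6* led at 36.9 FPKM (rank 2481), *Spred1* and *Spred2* followed at 25.2 FPKM each, then *Dusp4* at 14.7 FPKM and *Spry1* at 10.7 FPKM. *Etv5*, *Spry2*, *Il17rd* and *Etv4* lay below these, and *Spry4* was last at 0.308 FPKM, the one member under 1 FPKM in NCs. FPKM is scaled by length, which allows this comparison between genes, but whether neighbors in either order differ beyond their spread could not be determined. Summed over the 10 genes the level was 301 FPKM in ESCs against 134 FPKM in NCs.

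**Figure D2:**
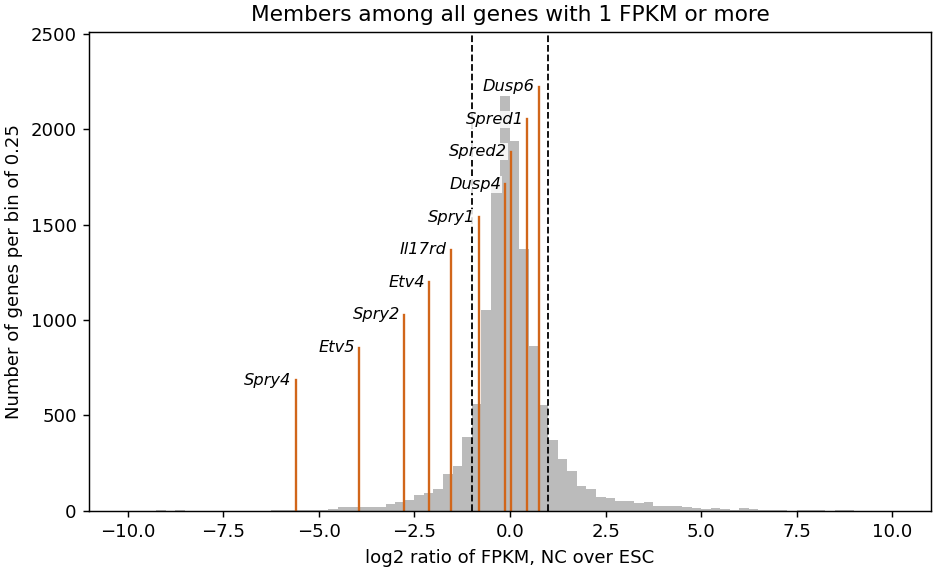
Number of genes (y axis) by log2 ratio of NC to ESC FPKM (x axis, bins of 0.25) for genes with at least 1 FPKM in either condition and a value above 0 in both. Orange lines mark the 10 members at arbitrary heights and dashed lines the 2-fold limits. The 5 genes from *Spry4* to *Il17rd* lie left of the lower limit and the other 5 between the limits.

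The Sprouty genes encode inhibitors of receptor tyrosine kinase signaling that are themselves phosphorylated when the receptor is active. *Spry4* (chromosome 18, 38586247 to 38601415, minus strand) had 15.0 FPKM in ESCs against 0.308 FPKM in NCs. This is the largest relative difference among the members, 48.7-fold lower in NCs, and its ratio ranked 47 from the lowest of the 13293. The size of that fold rests on the low NC value and was 12.2-fold when 1 FPKM was added to both values. *Spry2* (chromosome 14, 105891947 to 105896819, minus strand) went with it, at 45.7 FPKM in ESCs against 6.74 FPKM in NCs, 6.78-fold lower. *Spry1* (chromosome 3, 37639947 to 37644598, plus strand) was 1.75-fold lower, at 18.7 against 10.7 FPKM, and so within the limit. *Spry3*, the remaining family member, is listed at 0 in both conditions. The ubiquitous elongation factor gene *Eef1a1* is listed at 0 as well, so a 0 in this table does not show that a gene was silent.

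Because the Sprouty genes differed to unequal extents, the make-up of the family differed between the conditions. Their summed level was 79.3 FPKM in ESCs against 17.7 FPKM in NCs, 4.47-fold lower. *Spry2* supplied 57.5% of the ESC sum and *Spry1* 23.5%, whereas in NCs *Spry1* supplied 60.3% and *Spry2* most of the rest. The share of *Spry4* went from 18.9% to 1.74%. Such shares do not depend on how the conditions were scaled to each other.

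The Spred genes encode relatives of Sprouty that carry the same cysteine-rich domain and bring the RAS inhibitor neurofibromin to the membrane. They did not follow *Spry2* and *Spry4*. *Spred2* (chromosome 11, 19924375 to 20024026, plus strand) had 24.9 FPKM in ESCs against 25.2 FPKM in NCs, a log2 ratio of 0.01. *Spred1* (chromosome 2, 117121374 to 117182279, plus strand) was 1.37-fold higher in NCs, at 25.2 against 18.3 FPKM. *Spred3* was low in both, at 1.23 and 1.56 FPKM. The family sum was 44.5 FPKM in ESCs against 51.9 FPKM in NCs. In ESCs there was 1.83 times as much *Spry2* as *Spred2*, and in NCs 3.74 times as much *Spred2* as *Spry2*.

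*Il17rd* (chromosome 14, 27038941 to 27107286, plus strand) encodes Sef, a transmembrane protein that binds FGF receptors and activated MEK and ERK complexes. It had 12.6 FPKM in ESCs against 4.28 FPKM in NCs. It was 2.93-fold lower, the smallest of the differences past the limit.

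The DUSP genes among the members encode a nuclear and a cytoplasmic ERK phosphatase, and neither was lower by the limit. *Dusp6* (chromosome 10, 99263231 to 99267489, plus strand), which encodes the cytoplasmic, ERK-selective enzyme and is widely used as a readout of FGF signaling, had 21.9 FPKM in ESCs against 36.9 FPKM in NCs. It was 1.69-fold higher in NCs, a ratio that ranked 2185 from the highest. *Dusp4* (chromosome 8, 34807297 to 34819894, plus strand), which encodes a nuclear enzyme, had 16.0 FPKM in ESCs against 14.7 FPKM in NCs.

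*Dusp4* and *Dusp6* were then set beside the other MAP kinase phosphatases. Of the 10 genes in this list, 2 were at least 2-fold higher in NCs, 1 was 2-fold lower and 7 were within the limit, with a median log2 ratio of 0.30. *Dusp5*, whose product is a nuclear phosphatase selective for ERK, was 4.25-fold higher in NCs, at 23.7 against 5.58 FPKM. *Dusp8* was 2.45-fold higher but low, at 0.715 and 1.75 FPKM. *Dusp1*, an immediate early gene for a nuclear phosphatase of several MAP kinases, was 2.16-fold lower, at 19.4 against 8.96 FPKM, a call lost under TPM scaling. *Dusp9*, which encodes another cytoplasmic ERK phosphatase, was at 32.0 and 32.2 FPKM and *Dusp7* at 6.46 and 6.85 FPKM. *Dusp2* was at 1.00 and 1.36 FPKM and *Dusp10* at 1.36 and 2.03 FPKM. Within the nuclear group of *Dusp1*, *Dusp2*, *Dusp4* and *Dusp5*, *Dusp1* supplied 46.2% of the summed level in ESCs and 18.4% in NCs, and *Dusp5* 13.3% in ESCs and 48.7% in NCs. The sum over all 10 phosphatases was 115 FPKM in ESCs against 140 FPKM in NCs.

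Of the PEA3 genes, both members were at least 2-fold lower in NCs. *Etv5* (chromosome 16, 22381309 to 22439719, minus strand) had 116 FPKM in ESCs against 7.57 FPKM in NCs, which is 15.4-fold lower and ranks 114 from the lowest ratio. Its difference, -109 FPKM (NC minus ESC), was the largest among the members in absolute terms. *Etv4* (chromosome 11, 101769742 to 101785371, minus strand) was 4.36-fold lower, at 11.5 against 2.64 FPKM. *Etv1*, the third gene of the group, was at 3.61 FPKM in ESCs against 2.09 FPKM in NCs, within the limit. The group as a whole was 10.7-fold lower, from 131 to 12.3 FPKM. *Etv5* supplied 88.5% of the sum in ESCs and 61.5% in NCs. *Etv5* and *Dusp6*, both commonly read as ERK targets, changed places: in ESCs the *Etv5* level was 5.32 times that of *Dusp6*, and in NCs the *Dusp6* level was 4.88 times that of *Etv5*.

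**Figure D3:**
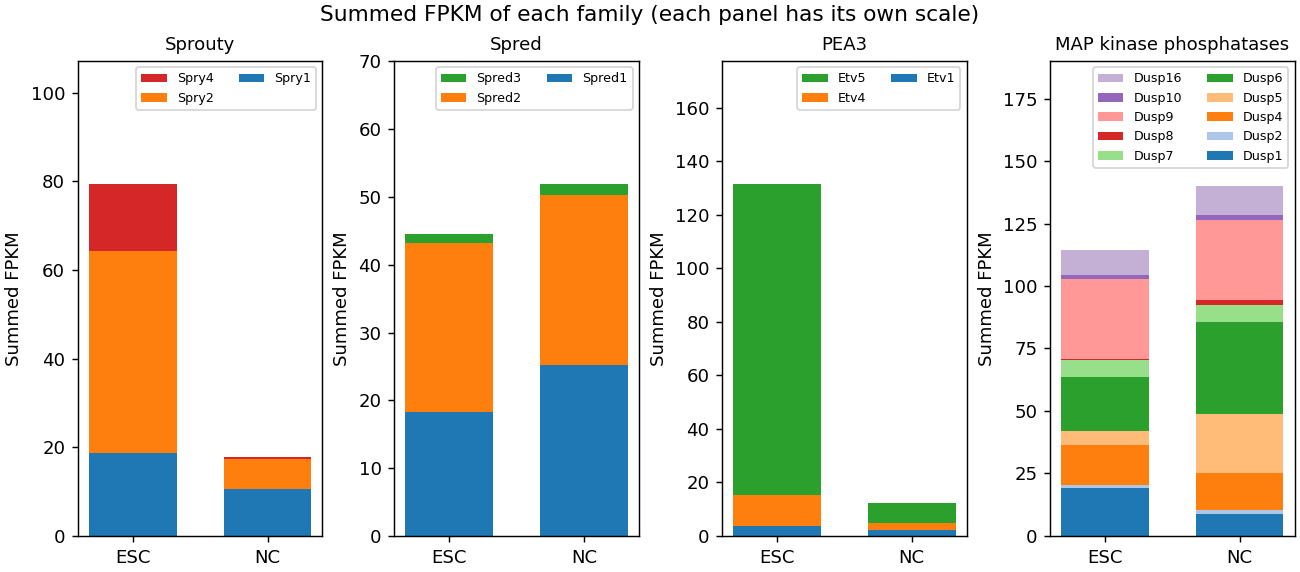
Summed FPKM (y axis, from 0, a separate scale in each panel) of the Sprouty, Spred, PEA3 and MAP kinase phosphatase genes in ESCs and NCs, with each gene as a segment; *Spry3*, listed at 0, has none. The Sprouty bar is 4.47-fold and the PEA3 bar 10.7-fold lower in NCs, while the Spred and phosphatase bars are slightly higher in NCs.

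The other ETS factors were then set beside *Etv4* and *Etv5*. Of 20 listed genes, 19 have a row and 15 reached 1 FPKM, and all 15 were within 2-fold, with a median log2 ratio of 0.14. The largest differences upward were those of *Etv3* (5.21 and 9.56 FPKM) and *Etv6* (4.95 and 8.93 FPKM), genes for ETS repressors, and under TPM scaling these 2 were past the limit. *Gabpa*, which encodes a broadly expressed ETS activator, was at 37.6 and 22.7 FPKM.

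Upstream of the feedback genes, 3 FGF ligand genes were 2-fold lower in NCs. The receptor genes *Fgfr2* and *Fgfr3* and the co-receptor gene *Klb* were 2-fold higher. *Fgf4* had 65.7 FPKM in ESCs against 0.818 FPKM in NCs. *Fgf17* was at 6.05 and 0.206 FPKM and *Fgf5* at 3.89 and 0.561 FPKM. Of the 22 *Fgf* family genes listed, 11 reached 1 FPKM. Apart from these 3 and *Fgf1* (1.40 and 3.21 FPKM, 2-fold higher), 7 were within 2-fold. *Fgfr2* was 3.59-fold higher in NCs, at 26.6 against 7.40 FPKM, and *Fgfr3* 4.53-fold higher, at 6.31 against 1.39 FPKM. *Klb*, which encodes a co-receptor for endocrine FGFs, was low, at 0.628 and 1.52 FPKM. It was no longer past the limit when 1 FPKM was added to both values. *Fgfr1*, the most abundant receptor gene in both conditions, was at 31.0 FPKM in ESCs against 44.1 FPKM in NCs.

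The kinases and adaptors between receptor and feedback genes were mostly within 2-fold. Of the 21 cascade genes with a row, none was 2-fold lower and 2 were 2-fold higher, and their median log2 ratio was -0.04. These 2 were *Rps6ka3*, which encodes an ERK-activated kinase (15.3 and 42.6 FPKM), and *Sos2*, which encodes a RAS activator (3.22 and 7.92 FPKM). The MEK gene *Map2k1* was 1.72-fold lower, at 77.6 against 45.0 FPKM.

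Inhibitors of receptor and RAS signaling outside the 10 genes differed in both directions. Of 19 with a row, 4 were 2-fold higher and 2 were 2-fold lower, beside 12.5% and 10.6% of all genes. Their median log2 ratio was 0.27. *Errfi1*, which encodes a feedback inhibitor of EGF receptors, was at 8.93 and 20.0 FPKM, and *Lrig1*, which encodes a membrane protein that lowers receptor levels, at 5.55 and 13.8 FPKM. *Fgfrl1*, a gene for an FGF receptor that lacks the kinase domain, was at 7.07 and 19.2 FPKM, and *Shisa3* at 0.344 and 3.41 FPKM. *Socs3*, a STAT3 target induced by LIF, was 9.47-fold lower, at 82.1 against 8.67 FPKM, and *Rasal1*, named after its values were seen and encoding a RAS inhibitor, was at 4.09 and 1.66 FPKM. Among genes listed as positive regulators of FGF signaling, *Flrt3*, which is co-expressed with FGF8 in embryos and encodes an FGF receptor partner, was 13.2-fold higher in NCs, at 16.9 against 1.28 FPKM. *Flrt2* was at 0.363 and 2.34 FPKM, and *Cnpy1* was 8.66-fold lower, at 4.46 against 0.515 FPKM.

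**Figure D4:**
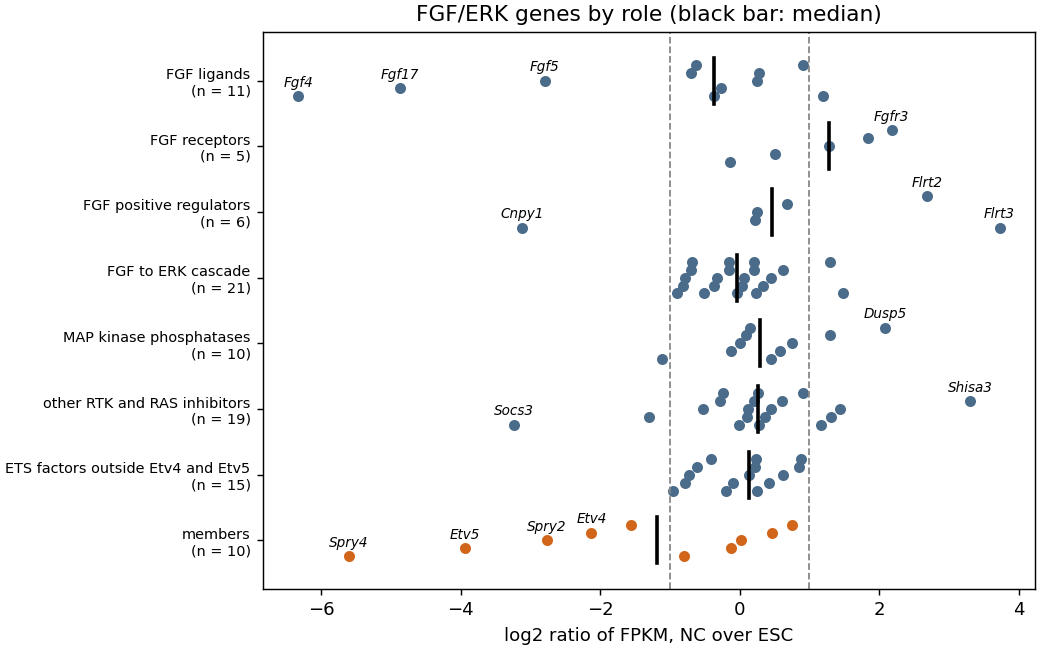
Log2 ratio of NC to ESC FPKM (x axis) of each gene with at least 1 FPKM in either condition, by role in FGF/ERK signaling (rows, vertical offsets are arbitrary). *Dusp4*, *Dusp6* and *Ets2* appear in 2 rows each. Black bars are medians and dashed lines the 2-fold limits, and the median of the 10 feedback genes, -1.18, is the lowest of the rows.

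Markers of cell types were then set beside the members. In 2 conditions every lower gene shares its direction with every other, and 10.6% of all genes were at least 2-fold lower. All 8 pluripotency markers were at least 2-fold lower in NCs, and their summed level was 5949 FPKM in ESCs against 936 FPKM in NCs, with none at 0. The marker folds ran from 3.48 (*Sox2*) to 513 (*Tdgf1*), with *Pou5f1* 22.4-fold and *Nanog* 16.2-fold lower. Those of the 5 lower members ran from 2.93 (*Il17rd*) to 48.7 (*Spry4*, 12.2 with 1 FPKM added to both values). In bulk samples, fewer cells of a type and less RNA per cell cannot be told apart, and the part of the marker change in the result was not tested. Of 6 neural progenitor markers at 1 FPKM or more, *Pax6* (3.64 and 65.2 FPKM), *Sox1* (1.77 and 21.8 FPKM), *Sox3* and *Hes5* were 2-fold higher, while the neuronal tubulin gene *Tubb3* was lower, at 33.4 against 7.54 FPKM. The authors' name for NCs, neuronal cells, is not borne out by the levels of *Tubb3* and *Dcx*. *Dcx* (0.334 FPKM in NCs) and *Olig2* (0.0350 FPKM) of the 8 listed were under 1 FPKM in both conditions. Of 6 primitive endoderm markers at that level, *Foxa2*, *Sox17*, *Gata6*, *Dab2* and *Sox7* were 2-fold higher, and the summed level of all 8 went from 17.0 to 39.9 FPKM. The 8 mesoderm and streak markers summed to 3.95 and 5.66 FPKM, and of 2 at that level *Foxf1* was 2-fold higher. The 8 trophoblast markers summed to 72.8 and 81.2 FPKM. Of 5 at that level, *Gata3* and *Krt8* were 2-fold higher and *Tfap2c* and *Ascl2* 2-fold lower. The 8 fibroblast markers summed to 20.2 and 44.3 FPKM, with *Lum* listed at 0 in ESCs. Of 5 at that level, 4 were 2-fold higher and *Thy1* was 2-fold lower. The part of these cell types in the members' differences was not tested. *Hprt*, which E14Tg2a cells lack by deletion, was at 0.242 and 0.465 FPKM.

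The chromosomal surroundings of the lower members were looked at next. The nearest protein-coding genes with a row on each side of the 5 lower members, named here for their position, number 10, of which 9 reached 1 FPKM. Of these 9, 1 was 2-fold lower and 1 was 2-fold higher, beside 10.6% and 12.5% of all genes. With 9 neighbors, whether their shares differ from those of all genes cannot be told. The lower one was *Hesx1*, 36612 bp from *Il17rd*, at 2.02 and 0.614 FPKM, and the higher one was *Meox1*, 92139 bp from *Etv4*, at 0.253 and 5.43 FPKM. *Spry2* and *Spry4* each have a gene of the *Ndfip* pair on 1 side, 582649 and 120944 bp away, and neither was 2-fold different. *Ndfip2* was at 15.6 and 19.4 FPKM and *Ndfip1* at 97.2 and 83.5 FPKM. The neighbor on the other side was closer for both. *Trim52*, 209379 bp from *Spry2*, was at 4.98 and 2.57 FPKM, a log2 ratio of -0.96 and just within the limit. *Arhgap26*, 75303 bp from *Spry4*, was at 1.51 and 1.13 FPKM. In the annotation, the spans of 8 members overlap no other gene. *Spry1* and *Spry4* are overlapped on the opposite strand by small genes without a row in the table, and the use of strand in counting is not given in the sources used here.

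The members differ in gene structure. The principal transcripts of *Spry1*, *Spry2* and *Spry4* have 2 exons each, with coding lengths from 900 to 945 bp. Those of *Etv4*, *Etv5* and *Il17rd* have 13 exons each. The count of the letters ATTTA, a sequence found in many unstable mRNAs, in the 3′ UTR ran from 0 in *Etv4* to 12 in *Spred1*, with a median of 2 for the 10 members and of 1 over 18556 genes of the table. The members' median 3′ UTR was also longer, 1159.5 against 887 bp, though those of *Etv4* (624 bp) and *Spry2* (856 bp) were shorter than 887 bp. Per kb of 3′ UTR the median counts were 1.86 and 1.20. *Spry4* had 7 in 3559 bp, or 1.97 per kb, beside 1.91 per kb in *Spry1*, and *Dusp6* had 1. High and low counts occurred both among members that were lower and among members within the limit.

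Promoter sequences, taken from RefSeq on GRCm38.p6 and running from 250 bases before to 50 after a start site, were found for 7 members (*Spry1*, *Spry2*, *Spred1*, *Spred2*, *Dusp6*, *Etv5* and *Il17rd*), with 8 promoters in all because *Etv5* has 2. They were rich in G and C, from 57.0% to 74.0%, each above the median of 52.7% over 32851 promoters. The ETS motif was searched on both strands because ETV4 and ETV5 are members and bind it. The letters CCGGAAG were in none of the 8 promoters and in 8.86% of all promoters. The shorter CGGAAG, which is contained in it, was in 3 of the 8, against 16.9% of all promoters. The letters CG, which both versions contain, occurred 17 to 40 times in each of the 8, against a median of 7 over all promoters. The shares over all promoters were not matched for this. The 30 bases around each match are shown to place the motif in the promoter, with capitals for the match. All 3 genes are members within 2-fold, and the lower members *Spry4* and *Etv4* had no promoter sequence to search. CTTCCG is the same motif on the other strand.
Dusp6 (chr10:99263158-99263187, plus strand): ggcaacagcccCTTCCGcagcgcgctcatt
Spred1 (chr2:117121041-117121070, plus strand): ccggttcgagcggCGGAAGgagcgggcggc
Spred2 (chr11:19924388-19924417, plus strand): agacgtcatcgCTTCCGccctacttcctcc
The matches begin 62, 17 and 43 bases before the RefSeq start site, in this order. For *Spred1* and *Spred2* that start site differs from the GENCODE gene start given above, and the *Spred2* match lies after the GENCODE start. The nuclear receptor motif AGGTCA, which RA receptors can bind, was in the *Spry2* promoter among the 8 and in 16.3% of all promoters. The AP-1 motif TGACTCA was in none of the 8 (5.2% of all), and neither was the CArG box, the site of serum response factor (1.63% of all). A match is a description of the letters and not of binding, and these windows leave out distal elements.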

How the data were processed

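Per the submitters' processing notes and methods, the authors ran TopHat2 (version 2.0.8, with Bowtie2 version 2.1.0) against mm10, then Cufflinks (version 2.0.2), Cuffmerge and Cuffdiff. Cuffdiff's version and normalization option are not given in the sources used here. They deposited 1 FPKM value per gene and condition, estimated over 3 samples. The heading of the NC column ends in FPK and was read as FPKM. The table also holds the authors' fold changes, test statistics, p-values and q-values, which were not used. Fragments per sample are unknown, so no counting error could be given.

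Ratios were formed from FPKM without a pseudocount, and genes with at least 1 FPKM in the higher condition were counted at 2-fold. No test was possible on 1 value per condition. The members and gene lists were chosen with earlier results of these data known. All members and their paralogs were named, and from each other list up to 5 genes with the largest difference in log2(FPKM + 1). Gene spans, exons and 3′ UTRs are from GENCODE M21 (GRCm38, the mm10 assembly). A planned comparison of protein sequences was not run. The ratio and counting code was tested on simulated data. Alternatives were TPM scaling, centring on the median or on 14 reference genes, pseudocounts of 0.1 and 1, fold limits of 1.5 and 3, FPKM minimums of 0 and 5, and 1 row per gene name. Python 3.11.15, numpy 2.4.6, pandas 2.3.3 and matplotlib 3.10.9 were used.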

Additional observations from a re-analysis of the deposited data

How the results depend on the processing

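The 5 members 2-fold lower in NCs stayed so under all 3 scalings and both pseudocounts. At limits of 1.5-fold and 3-fold the count of lower members was 6 and 4. Centring on the reference genes, like TPM scaling, turned the log2 ratio of *Dusp4* positive (0.04). The count of members 2-fold higher went from 0 to 1 with TPM scaling and with a 1.5-fold limit. The members' median log2 ratio was -0.89 with TPM scaling. The share of all genes 2-fold higher was 8.08% with a pseudocount of 1, and at limits of 1.5-fold and 3-fold it was 20.6% and 7.07%, beside 19.4% and 5.32% lower. Of 122 other pathway genes listed, 97 reached 1 FPKM, and 16 of these were higher and 9 lower. The higher count was 26 at 1.5-fold, 7 at 3-fold and 26 without an FPKM minimum. The lower count was 20 at 1.5-fold and 14 without a minimum. Counts without a minimum take in every listed gene above 0 in both conditions. Over all genes, 16.2% were then higher and 13.2% lower. The shorter ETS letters raised the promoters with a match from 0 to 3. Of 162 counts for single lists, 36 moved, which means by over 1.5 times or to or from 0. No paired analysis was possible because the table holds no values of single samples, and leaving out replicates was not possible for the same reason.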

Other observations

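Immediate early genes, which ERK and other kinases induce within minutes, differed in both directions. Of 16 listed, 12 reached 1 FPKM. Of these, 2 were 2-fold higher in NCs and 2 were 2-fold lower, beside 12.5% and 10.6% of all genes. The other 8 were within the limit, and the median log2 ratio was 0.30. *Jun* (7.90 and 22.4 FPKM in ESCs and NCs) and the stress-induced *Atf3* (1.73 and 6.52 FPKM) were higher. *Ier3*, whose product can prolong ERK activity, was 5.43-fold lower, at 22.0 against 4.05 FPKM, and *Junb* 2.72-fold lower, at 20.5 against 7.57 FPKM. *Egr1* and *Fos*, common readouts of ERK activity that were named after their values were seen, were both within the limit, at 6.57 and 9.94 FPKM and at 2.14 and 1.98 FPKM.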
